A study of Mus musculus with 6 samples.

Results

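The proteasome subunit genes are the 48 gene symbols, of 24346 in the files, that consist of Psm, a letter from a to g and a number. The rule uses names only and no measured value. The set holds the 8 alpha and 11 beta subunits of the 20S core particle, the 6 ATPases (Psmc) and 14 other proteins (Psmd) of the 19S regulatory particle, 4 activators (Psme), the inhibitor Psmf1 and 4 assembly chaperones (Psmg). RNA came from primary stromal cells grown out of prostates of C57BL/6 mice aged 8 to 12 weeks. The medium of all cells held 5% Nu-Serum, 5% fetal bovine serum and 1e-10 M dihydrotestosterone (DHT), an androgen, and all cells carried the FU-CGW lentiviral vector, either empty (vector, 3 libraries) or with a complementary DNA for S37A β-catenin (S37A, 3 libraries). The introduced gene was added to cells that keep their own Ctnnb1, and nothing in the labels ties a library to its own culture or animal. The p-values therefore cover the spread among these libraries only, and that spread may be technical.

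The 26S proteasome breaks down proteins that carry ubiquitin chains. Its 19S cap binds the chain, removes it and unfolds the protein with a ring of ATPases, and the 20S core cuts it inside a chamber built from alpha and beta rings. The beta subunits encoded by Psmb5, Psmb6 and Psmb7 carry the active sites, and under interferon they can be replaced in new particles by those of Psmb8, Psmb9 and Psmb10, which gives the immunoproteasome. The transcription factor Nrf1, product of Nfe2l1, drives many of these genes together through antioxidant-type elements in their promoters. β-catenin is itself a classic substrate, marked for breakdown after phosphorylation at residues that include the serine missing from the S37A form.

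Promoter windows from RefSeq (GRCm38.p6) were found for 40 of the 48 genes, in 43 windows, and the 250 bases before the start were searched on both strands for TGACNNNGC, a core of the antioxidant-type element, and for GAAA, any 2 bases and GAAA, a core of the interferon-type element. The first was present in 5 windows (11.6%), those of Psmb5, Psmb6, Psmc6, Psmd9 and Psmd12, against 10.2% of all 32851 windows of that length. The second was present in 3 (6.98%), those of Psmb3, Psmd4 and Psmd9, against 2.98% of all. No window was found for 8 members, so a gene that is not named here may not have been searched. Shown here are the catalytic genes Psmb5 and Psmb6, and Psmd9 and Psmd11, the members whose fall was called in the largest number of settings; capitals mark the matches, and Psmd11 has none.
Psmb5: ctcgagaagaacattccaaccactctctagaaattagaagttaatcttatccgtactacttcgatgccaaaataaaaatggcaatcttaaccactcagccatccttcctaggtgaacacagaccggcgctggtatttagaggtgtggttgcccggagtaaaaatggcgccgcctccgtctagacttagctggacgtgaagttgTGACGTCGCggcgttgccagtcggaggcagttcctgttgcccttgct
Psmb6: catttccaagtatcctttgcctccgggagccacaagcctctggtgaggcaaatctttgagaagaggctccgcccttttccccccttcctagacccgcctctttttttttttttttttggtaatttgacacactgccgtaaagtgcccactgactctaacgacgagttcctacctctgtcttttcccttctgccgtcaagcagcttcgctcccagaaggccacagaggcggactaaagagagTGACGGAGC
Psmd9: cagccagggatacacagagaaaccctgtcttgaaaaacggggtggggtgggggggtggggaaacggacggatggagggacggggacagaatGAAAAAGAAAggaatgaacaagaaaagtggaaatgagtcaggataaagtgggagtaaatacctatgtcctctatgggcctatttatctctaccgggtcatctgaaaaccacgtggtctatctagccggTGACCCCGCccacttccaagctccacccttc
Psmd11: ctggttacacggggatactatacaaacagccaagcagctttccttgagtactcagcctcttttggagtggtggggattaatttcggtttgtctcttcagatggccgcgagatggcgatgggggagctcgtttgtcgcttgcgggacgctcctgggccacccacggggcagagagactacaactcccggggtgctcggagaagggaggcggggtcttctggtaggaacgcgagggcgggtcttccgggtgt
The windows lie at chr14:54617996-54618245 (minus strand), chr11:70525107-70525356, chr5:123227940-123228189 and chr11:80428365-80428614 (plus strand). A match is a description of letters only.

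Levels are given in FPKM, fragments per kilobase of transcript model scaled to the depth of the library, summed over the models of a symbol. The widths of the deposited confidence intervals correspond to depths of 46.6 M to 51.4 M fragments in vector and 41.0 M to 47.3 M fragments in S37A, which covers counting error only. Markers of fibroblasts and smooth muscle were abundant and their sum over 14 genes was higher in S37A (12127 to 12211 FPKM) than in vector (10514 to 10896 FPKM), without overlap. Of 13 tested, 6 rose (46.2%: Acta2, Cnn1, Des, Myh11, Tagln and Thy1) and Pdgfra fell (7.69%). Of all genes tested in limma, 6.06% were called higher and 19.9% lower. Col1a1, Col1a2, Col3a1, Dcn, Vim and Pdgfrb were not called. The calls of Cnn1, Des and Thy1 held in all 17 other settings. Those of Acta2, Tagln, Myh11 and Pdgfra held in 9, 10, 7 and 14 of 16. The fibroblast gene Lum stood at only 0.295 and 0.398 FPKM in the 2 groups. Epithelial markers summed to 13.1 to 19.2 FPKM in vector and 10.5 to 20.5 FPKM in S37A over 9 genes. Endothelial markers summed to 96.9 to 109 FPKM in vector and 92.6 to 96.3 FPKM in S37A over 5 genes, without overlap. In limma 0 of the 5 were called, beside 26.0% of all genes. The part of these shifts in the results on proteasome genes was not tested. Ctnnb1, whose level may include reads of the introduced sequence, stood at 110 ± 9.79 FPKM in vector and 141 ± 7.73 FPKM in S37A (SD, n = 3). The part of such reads was not measured.

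Of the 48 genes, 46 averaged 0.5 FPKM or more across libraries and were tested; Psma8 and Psmb11 were not. Psma8, the alpha subunit of testis, stood at 0.247 ± 0.0395 FPKM in vector and 0.315 ± 0.0479 FPKM in S37A, and Psmb11, the beta subunit of the thymus, at most at 0.0101 FPKM. The 31 remaining subunits of the 20S core and the 19S cap, leaving aside the inducible subunits and the base chaperones, were expressed in one band. Their mean level was between 50 and 200 FPKM for 27 of them, with a median of 91.1 FPKM. Psmd8, a lid subunit of the 19S cap, was the most abundant at 315 FPKM, and below the band lay Psmd11 (43.6 FPKM), Psma3 (26.8 FPKM) and Psma5 (16.4 FPKM). The highest of the 31 levels per length was 19.2 times the lowest.

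Processed pseudogenes share long stretches with some of these transcripts, and the level of such a gene depends on how reads were divided. Another annotated transcript aligned to 9 members with at least 95% identity. Psma3 had 3 such copies (96.5% to 100% identity) and Psma5 had 2 (97.6% and 98.6%), while Psmb3, with 3, and Psmb5, with 1, lay inside the band. Copies were also found for Psma4, Psmc1, Psmd2 and Psmd11, whose single copy Gm14048 matched over 1269 bases at 98% identity. These pseudogenes have no entry under those symbols in the tables used here, and their part in the low levels of Psma3 and Psma5 was not tested.

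**Figure D1:**
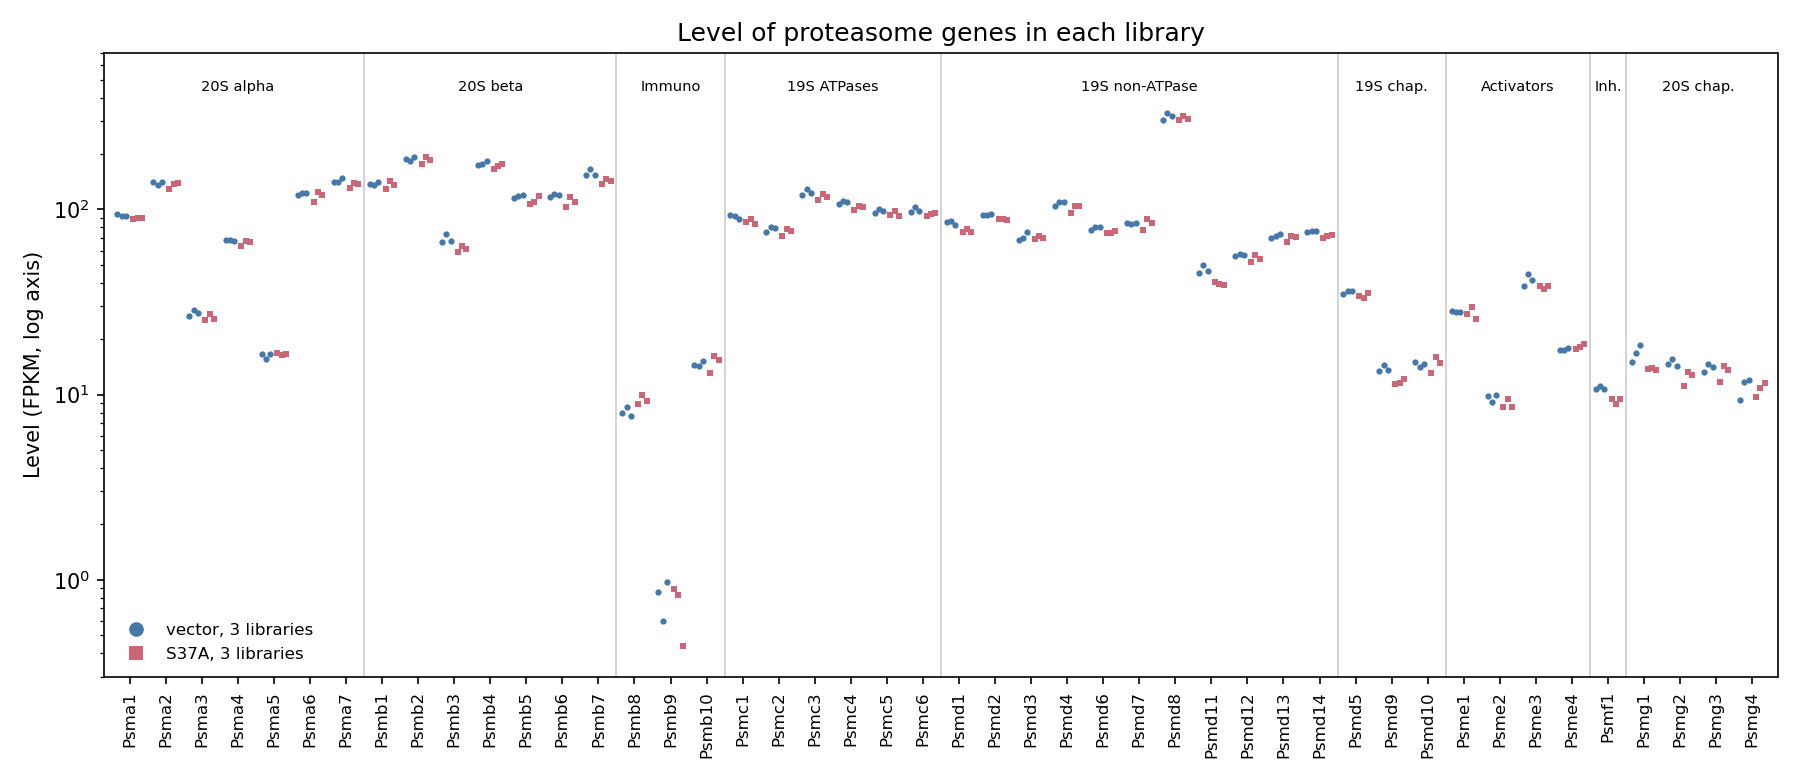
Level of the 46 tested proteasome genes in each library, in FPKM on a log axis, with 3 vector libraries (circles) and 3 S37A libraries (squares) per gene. Most 20S and 19S genes lie between 50 and 200 FPKM in both groups, Psmd8 stands above them, and Psmb9 is below 1 FPKM in every library.

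Differences between S37A and vector were small throughout. Of the 46 genes, 1 rose (Psmb8), 8 fell (Psmb3, Psmb7, Psmd1, Psmd9, Psmd11, Psmf1, Psmg1 and Psmg2) and 37 did not pass the test. Genes were tested with limma on log2(FPKM + 1), with Benjamini-Hochberg adjustment over 12022 genes and a threshold of 0.05. Among all genes tested, 6.06% were called higher and 19.9% lower, 26.0% in all, so the 17.4% of members that fell is near the background. The median log2 difference was -0.076 over the 46 genes and -0.066 over all genes, and the values of the members ran from -0.26 to 0.20.

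A lower value in S37A was more frequent than this count shows: 41 of the 46 differences were below 0, against 69.5% of all genes. The groups did not overlap for 18 members, 17 of them lower and 1 higher, against 47.8% of all genes (36.5% lower and 11.3% higher). Among the 31 subunits of the core and the cap, 30 were lower, and S37A replicate 1 held the lowest of the 6 values for 25. The share of all genes that were lowest in that library was not computed. Whether the count of 25 is particular to these genes therefore cannot be told. S37A replicate 1 also had the lowest scaling factor when libraries were compared by median ratios (0.963). The factor was 0.982 and 0.981 in the other S37A libraries and 1.02 to 1.04 in vector. With libraries set to a common median ratio, 24 of the 46 differences were below 0. The median moved to -0.004 for the members and to -0.005 for all genes. In that setting 1 member was called higher and 2 lower, beside 10.3% and 8.14% of all genes. Without S37A replicate 1, 1 member was called higher and 3 lower, beside 4.92% and 11.1% of all genes.

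**Figure D2:**
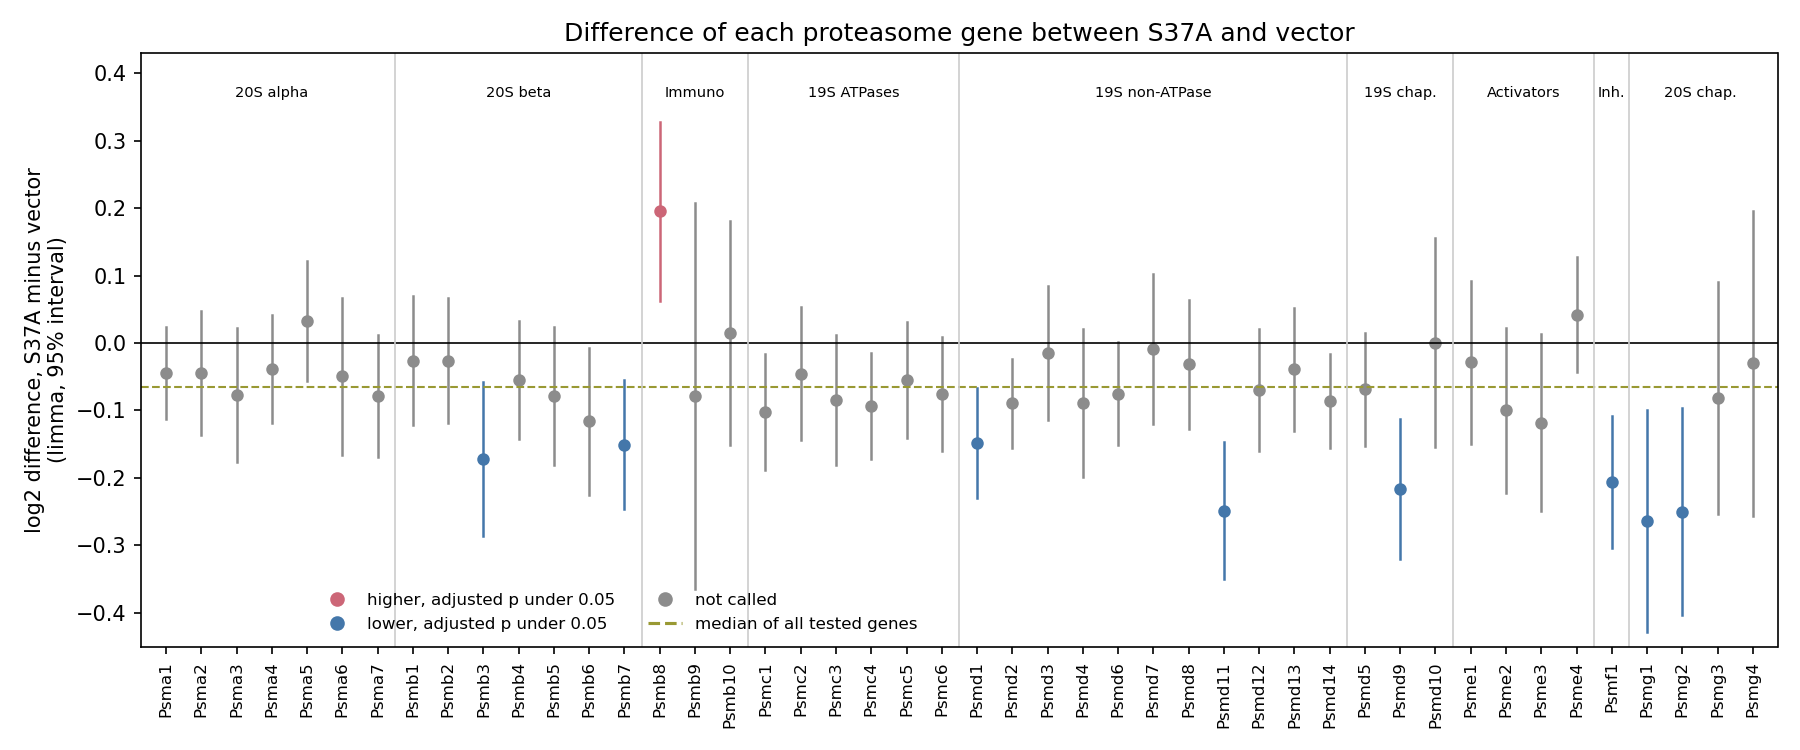
Log2 difference of S37A minus vector for the 46 tested genes, with 95% intervals from limma; colour marks the genes called higher or lower, the dashed line the median of all tested genes. Most points lie close to the dashed line, Psmb8 stands above it, and Psmd11, Psmg1 and Psmg2 lie lowest.

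The alpha ring forms the gate of the core, through which substrates enter. None of its 7 tested genes passed the test in limma, which 26.0% of all genes passed. The log2 differences of these 7 genes ran from -0.079 to 0.032. Psma7 was at 141, 140 and 148 FPKM in vector and 130.5, 139 and 137 FPKM in S37A (log2 difference -0.079, SE 0.04, limma adjusted p = 0.163). The highest S37A value lay just under the lowest vector value. Psma3 stood at 27.6 ± 1.02 and 26.1 ± 0.954 FPKM, and Psma1 at 92.5 ± 1.21 and 89.7 ± 0.677 FPKM (adjusted p = 0.207 and 0.276); the sign of the Psma1 difference turned under median-ratio scaling.

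In the constitutive beta ring, 2 of 7 genes fell (28.6%), beside 19.9% of all genes. Psmb7, which encodes the trypsin-like subunit (chromosome 2, 38588036 to 38644087, minus strand, mm10), was at 154, 165 and 154 FPKM in vector and 138, 146 and 142 FPKM in S37A. All S37A libraries lay below all vector libraries (log2 difference -0.15, SE 0.04, adjusted p = 0.0347). Psmb3, a structural beta subunit on chromosome 11 (97703399 to 97713500, plus strand), was at 66.6, 73.6 and 67.1 FPKM in vector and 58.9, 63.4 and 61.2 FPKM in S37A, again without overlap (log2 difference -0.17, SE 0.05, adjusted p = 0.0398). Neither was called under another scaling (adjusted p = 0.0566 to 0.178 for Psmb7 and 0.0630 to 0.163 for Psmb3) or without any 1 library other than vector replicate 1 (0.0640 to 0.102 and 0.0681 to 0.109). Each was called in 6 of the 17 other settings. The antisense gene Nek6 shares 11.8% of the exon bases of Psmb7, and the FPKM values do not show how reads there were assigned.

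The other catalytic genes were not called. Psmb6, the caspase-like subunit, was at 117, 122 and 120 FPKM in vector and 104, 116 and 110 FPKM in S37A, lower in every S37A library but not past the threshold (log2 difference -0.12, SE 0.05, adjusted p = 0.0998). Psmb5, the chymotrypsin-like subunit and the main target of proteasome inhibitors, was at 116, 118 and 119 FPKM in vector and 107, 109 and 118 FPKM in S37A, where replicate 3 reached the vector level (adjusted p = 0.211). Its 95% interval ran from -0.18 to 0.024 on the log2 scale.

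All 6 ATPases of the 19S base had lower means in S37A, and 0 passed the test in limma, which 26.0% of all genes passed. The log2 differences of the ATPases ran from -0.10 to -0.045. Psmc1 went from 91.9 ± 2.46 to 85.5 ± 2.59 FPKM and Psmc4 from 109 ± 2.43 to 102 ± 2.31 FPKM, without overlap of the groups (adjusted p = 0.0754 and 0.0763). Psmc6 stood at 99.5 ± 3.40 and 94.3 ± 1.74 FPKM (adjusted p = 0.150).

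Of the 11 other subunits of the cap, 2 fell (18.2%), beside 19.9% of all genes. Psmd11, a scaffold of the lid that is known to be limiting for 26S assembly in some stem cells, lies on chromosome 11 from 80428615 to 80473248 (plus strand). It was at 45.6, 50.3 and 46.6 FPKM in vector and 40.5, 39.6 and 39.2 FPKM in S37A. The groups were well apart, and the S37A libraries lay close together (log2 difference -0.25, SE 0.04, adjusted p = 0.0110). The fall of Psmd11 was called in 16 of 17 other settings, including every scaling, and missed without S37A replicate 3 (adjusted p = 0.0509). Psmd1, a large docking subunit of the base, was at 85.3, 87.0 and 82.4 FPKM in vector and 75.3, 78.5 and 75.9 FPKM in S37A (log2 difference -0.15, SE 0.03, adjusted p = 0.0239). The call of Psmd1 was lost when libraries were set to a common median ratio (adjusted p = 0.135), centred on the core and cap genes (0.139) or freed of the 100 most abundant genes (0.0530), without vector replicate 2 (0.0627) and without S37A replicates 1, 2 or 3 (0.0620, 0.0521 and 0.0850). Psmd2, the other docking subunit, went from 93.9 ± 0.423 to 88.2 ± 0.860 FPKM and just missed the threshold (adjusted p = 0.0537). Psmd14, the deubiquitinase of the lid, stood at 76.1 and 71.6 FPKM on average (adjusted p = 0.0682), and the abundant Psmd8 at 318 ± 12.6 and 311 ± 9.18 FPKM.

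Of the 3 chaperones that help to build the 19S base, 1 fell (33.3%), beside 19.9% of all genes. Psmd9 (chromosome 5, 123169413 to 123250131, plus strand, the span of all its GENCODE transcripts, within which the RefSeq start used for the promoter window lies) was at 13.3, 14.4 and 13.6 FPKM in vector and 11.5, 11.5 and 12.2 FPKM in S37A. The lowest vector value exceeded the highest S37A value (log2 difference -0.22, SE 0.04, adjusted p = 0.0166). That call was lost without S37A replicate 2 and with libraries centred on the core and cap genes (adjusted p = 0.0610 and 0.0584). The antisense gene Gm26745 overlaps 25.5% of the exon bases of Psmd9. Psmd5 stood at 35.9 ± 0.741 and 34.2 ± 1.01 FPKM, and Psmd10, the oncoprotein gankyrin, at 14.6 ± 0.454 and 14.6 ± 1.39 FPKM (adjusted p = 0.184 and 0.997).

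Among the chaperones that assemble the alpha ring, Psmg1 and Psmg2, whose products work as a pair, both fell. They were 2 of 4 chaperone genes (50%), beside 19.9% of all genes called lower. Psmg1 (chromosome 16, 95979933 to 95990960, minus strand) was at 14.9, 16.9 and 18.5 FPKM in vector and 13.8, 13.9 and 13.6 FPKM in S37A. The vector libraries were spread widely and the S37A libraries were close together, just under the lowest vector value (log2 difference -0.26, SE 0.07, adjusted p = 0.0336). Psmg2, on chromosome 18, was at 14.7, 15.5 and 14.3 FPKM in vector and 11.1, 13.2 and 12.7 FPKM in S37A (log2 difference -0.25, SE 0.07, adjusted p = 0.0325). With a common median ratio neither call held (adjusted p = 0.0853 and 0.0711). When 1 library was left out, Psmg1 stayed called only without vector replicate 1 (0.0738 to 0.09998 without any other library) and Psmg2 only without S37A replicate 2 (0.0541 to 0.0918). Psmg1 was called in 7 and Psmg2 in 8 of the 17 other settings. Psmg3 and Psmg4, which form the second pair, did not pass (adjusted p = 0.429 and 0.829), and the Psmg4 interval, from -0.26 to 0.20, is the widest of the 4. Psmg3 stood at 14.0 ± 0.735 FPKM in vector and 13.2 ± 1.34 FPKM in S37A.

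Psmf1, which encodes the inhibitor PI31 of the core particle, fell. Its level was 10.7, 11.1 and 10.7 FPKM in vector and 9.41, 8.85 and 9.50 FPKM in S37A, with a clear gap between the groups (log2 difference -0.21, SE 0.04, adjusted p = 0.0163). Under median-ratio scaling and quantile normalization Psmf1 missed the threshold (adjusted p = 0.0585 and 0.0565), and without S37A replicates 2 or 3 it missed as well (adjusted p = 0.0574 and 0.0526). The call was also lost with the replicate block and with libraries centred on the core and cap genes (adjusted p = 0.0535 and 0.0688).

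None of the 4 activator genes passed the test in limma, which 26.0% of all genes passed. Psme3, the nuclear activator PA28γ, was at 38.4, 44.9 and 41.7 FPKM in vector and 38.8, 37.3 and 38.5 FPKM in S37A, with overlap (adjusted p = 0.149). Psme4, the activator PA200, was 1 of 5 tested members with a difference not below 0, at 17.6 ± 0.277 and 18.2 ± 0.536 FPKM (adjusted p = 0.411). Psme1 and Psme2 encode the alpha and beta chains of the interferon-inducible PA28. Psme1 stood at 28.1 ± 0.269 and 27.6 ± 1.97 FPKM and Psme2 at 9.61 ± 0.425 and 8.91 ± 0.502 FPKM (adjusted p = 0.700 and 0.183).

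The low level of Psme2 has to be read beside its copy. Psme2b on chromosome 11 (48945354 to 48946190, minus strand), which the name rule leaves out, matches Psme2 over 794 bases with 99.4% identity, and was listed at 57.9 FPKM against 9.26 FPKM for Psme2 and 27.8 FPKM for Psme1. Psme2 held 12.8% to 14.8% of the summed level of the pair in the 6 libraries. The sum was 68.3 ± 1.21 FPKM in vector and 66.0 ± 2.19 FPKM in S37A, with overlapping groups. How the reads of these near-identical transcripts were divided cannot be told from the deposited values, so the level of Psme2 is uncertain.

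**Figure D3:**
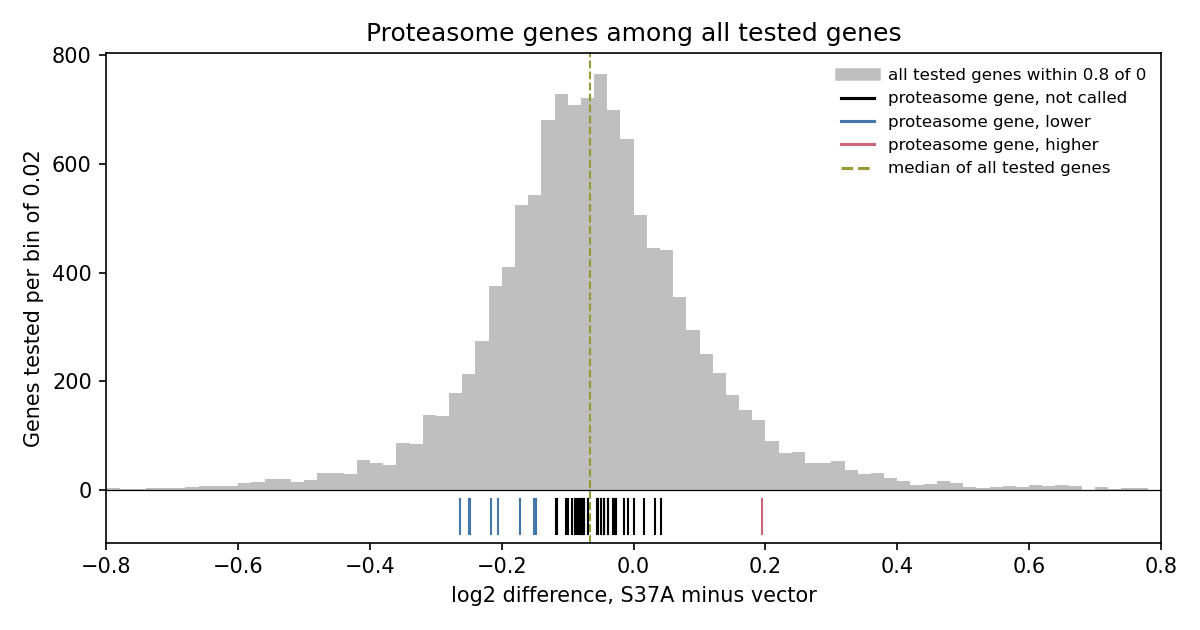
Histogram of the log2 difference of S37A minus vector for the tested genes within 0.8 of 0 (11918 of 12022), in bins of 0.02, with a tick under it for each of the 46 proteasome genes. The ticks gather around the dashed median of all genes, with Psmb8 alone on the right and the 8 called falls between -0.26 and -0.15.

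The inducible subunits were expressed far below their constitutive partners in both groups. Psmb8, the counterpart of Psmb5, was at 7.95, 8.53 and 7.68 FPKM in vector and 8.84, 10.0 and 9.25 FPKM in S37A. All S37A libraries were above all vector libraries, by a ratio of means of 1.16 (log2 difference 0.20, SE 0.06, adjusted p = 0.0430). It was the only one of the 46 genes called higher, a share of 2.17% against 6.06% of all genes. The call held under every scaling tried and was lost without vector replicate 1 or 3, without S37A replicate 2 or 3, without a filter on low levels and with the replicate block (adjusted p = 0.0797, 0.123, 0.125, 0.108, 0.0752 and 0.0502). Psmb8 lies in the MHC region (chromosome 17, 34197721 to 34201454, plus strand), 495 bases after the end of Tap1, and 14.7% of its exon bases are shared with the antisense gene Gm20496.

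The other inducible genes did not pass. Psmb10, the counterpart of Psmb7 (chromosome 8, 105935735 to 105938444, minus strand), was at 14.5, 14.3 and 15.2 FPKM in vector and 13.2, 16.1 and 15.3 FPKM in S37A, with the lowest and the highest value both in S37A (log2 difference 0.015, 95% interval -0.15 to 0.18, adjusted p = 0.885). Psmb9, the counterpart of Psmb6 (chromosome 17, 34181987 to 34187764, minus strand), was at 0.859, 0.598 and 0.973 FPKM in vector and 0.891, 0.829 and 0.439 FPKM in S37A. These values correspond to only 12 to 28 fragments in a library, and a difference as large as that of Psmb8 lies within the 95% interval of Psmb9 (-0.37 to 0.21, adjusted p = 0.652). Psmb9 is also read from the start region of Tap1, with which it shares 212 exon bases on the opposite strand.

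Ratios within a library do not depend on how libraries are scaled. A ratio to Psmb5 can still depend on how reads were divided between Psmb5 and its pseudogene copy. The level of Psmb8 was 6.86%, 7.24% and 6.44% of that of Psmb5 in the vector libraries and 8.29%, 9.16% and 7.81% in the S37A libraries. The groups did not overlap, with a log2 difference of 0.30, and an exact two-sided permutation test reached p = 0.1, its lowest possible value with 3 libraries a group (0.3 after Benjamini-Hochberg adjustment over 3 ratios). For Psmb10 the share of Psmb7 was 9.40%, 8.63% and 9.86% in vector and 9.53%, 11.04% and 10.8% in S37A, with overlap (exact permutation p = 0.2, adjusted 0.3). Psmb9 amounted to 0.492% to 0.812% of Psmb6 in vector and 0.398% to 0.860% in S37A (exact permutation p = 0.8, adjusted 0.8).

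**Figure D4:**
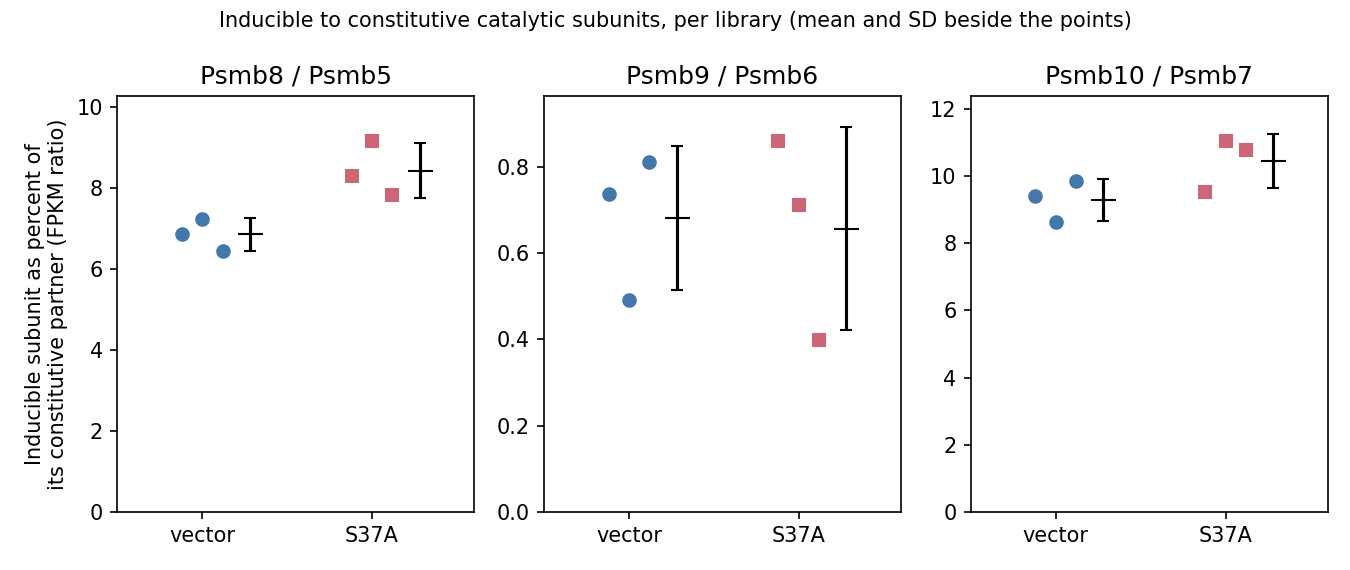
Level of each inducible subunit as a percentage of its constitutive partner, per library, with the mean and SD of 3 libraries beside the points; each panel has its own axis from 0. The S37A libraries lie above the vector libraries for Psmb8 to Psmb5, and the groups overlap for the other pairs.

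Inducible subunits are abundant in blood cells, and macrophage genes moved with the groups. Of 16 macrophage and myeloid markers 11 were tested. Of these, 9 rose (81.8%) and 0 fell, beside 6.06% and 19.9% of all genes, and only Lyz2 averaged 5 FPKM or more. C1qa, C1qb, C1qc and Csf1r averaged 0.372 to 0.497 FPKM in vector and passed the filter of 0.5 FPKM only through S37A. The share of 81.8% therefore depends in part on the filter. Without a filter on low levels, 10 of 16 rose and 0 fell, beside 3.07% and 8.76% of all genes. The summed level of the 16 markers was 24.5 to 30.9 FPKM in vector and 63.1 to 71.4 FPKM in S37A. Lyz2, a lysozyme gene, made up most of this, at 14.1 ± 1.91 and 36.7 ± 2.63 FPKM, while the leukocyte gene Ptprc stood at 0.0948 and 0.138 FPKM and the macrophage gene Adgre1 at 0.0786 and 0.235 FPKM. Lymphoid markers summed to at most 0.407 FPKM over 8 genes, with Cd3g listed at 0 in all libraries. The part of the myeloid transcripts in the rise of Psmb8 was not tested, and in bulk RNA a change in the number of cells of a type cannot be told apart from a change in RNA per cell.

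Genes of antigen processing and the interferon response moved in both directions: of 23 tested, 3 rose (13.0%) and 4 fell (17.4%), beside 6.06% and 19.9% of all genes. By the smallest p, Jak2, a kinase of the interferon-γ receptor, rose from 9.54 ± 0.436 to 12.4 ± 0.842 FPKM, and the class I genes H2-K1 and H2-D1 fell, H2-K1 from 76.9 ± 3.05 to 67.4 ± 1.73 FPKM and H2-D1 from 109 ± 3.85 to 97.0 ± 1.82 FPKM (adjusted p = 0.0102, 0.0181 and 0.0188). The call of Jak2 held in all 16 settings tried for it, while both class I calls were lost with a common median ratio (0.102 and 0.118) and without S37A replicates 2 or 3 (0.0505 and 0.0708 for H2-K1, 0.0677 and 0.0718 for H2-D1), and that of H2-D1 without vector replicate 2 (0.0525). The other risers, named after their values were seen, were the interferon-induced genes Isg15 (110 ± 12.1 to 155 ± 25.4 FPKM) and Irf7 (31.0 ± 3.44 to 38.7 ± 2.63 FPKM), and Jak1 and Irf2 also fell (adjusted p = 0.0278, 0.0333, 0.0193 and 0.0415). Isg15 was not called without vector replicates 2 or 3 or S37A replicates 2 or 3 (0.0563 to 0.0811), while Irf7 was called without vector replicate 1 but not without any other 1 library (0.0566 to 0.0972). Without a filter on low levels neither Isg15 nor Irf7 was called (0.0615 and 0.0664), and with a common median ratio neither Jak1 nor Irf2 was (0.113 and 0.101). Tap1, the neighbour of Psmb8 and Psmb9, stood at 7.37 ± 0.507 and 7.81 ± 0.312 FPKM and was named after its value was seen (adjusted p = 0.323). The median log2 difference of the 23 genes was 0.075.

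Of 17 proteins that dock on the proteasome or help it to mature, 4 genes fell (23.5%) and 0 rose, beside 19.9% and 6.06% of all genes, with a median log2 difference of -0.073 against -0.066 over all genes. Zfand2a, a stress-induced partner of the cap, fell from 26.1 ± 0.793 to 21.98 ± 0.967 FPKM. Akirin2, a mediator of the nuclear import of proteasomes, fell from 36.05 ± 1.23 to 31.2 ± 1.86 FPKM, and AI314180, which encodes the proteasome scaffold ECM29, from 21.9 ± 1.29 to 19.3 ± 0.287 FPKM (adjusted p = 0.0119, 0.0274 and 0.0370). That of Zfand2a was lost without S37A replicate 3 (0.0537). Akirin2 and AI314180 were not called with a common median ratio (0.102 and 0.144), nor without any 1 library other than vector replicate 1 (0.0514 to 0.0766 and 0.0631 to 0.117).

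Regulators of proteasome genes were mixed, with 1 of 13 higher (7.69%) and 4 lower (30.8%), beside 6.06% and 19.9% of all genes, and a median of -0.057. Ddi2, the protease that activates Nrf1, fell from 9.26 ± 0.684 to 7.27 ± 0.340 FPKM (adjusted p = 0.0142). Nfe2l2, which encodes the related factor Nrf2, fell from 66.6 ± 0.851 to 59.8 ± 1.78 FPKM, and Mafk, a partner of both factors, rose from 36.2 ± 0.169 to 40.2 ± 1.16 FPKM (adjusted p = 0.0203 and 0.0217). Without S37A replicates 2 or 3 the calls of Ddi2 (0.0524 and 0.0566), Nfe2l2 (0.0652 and 0.0767) and Mafk (0.0608 and 0.0804) were lost. Nfe2l2 also missed with a common median ratio (0.152) and without vector replicate 2 (0.0535), and Mafk without vector replicates 2 or 3 (0.0533 and 0.0592). Nfe2l1 itself, named after its value was seen, stood at 114 ± 4.41 and 107 ± 0.357 FPKM (adjusted p = 0.107).

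Among 20 genes of ubiquitin and its transfer, 2 rose (10%) and 4 fell (20%), beside 6.06% and 19.9% of all genes, with a median of -0.054. Ubb, 1 of the genes that encode ubiquitin, fell from 610.1 ± 10.9 to 533 ± 8.51 FPKM in a comparison without overlap (adjusted p = 0.00998). This call held in all 16 settings tried for it. Ube2d2a, a ubiquitin-conjugating enzyme, rose from 32.3 ± 1.16 to 38.2 ± 2.30 FPKM, and Cul3, a scaffold of ubiquitin ligases, fell from 46.6 ± 2.46 to 41.5 ± 0.129 FPKM (adjusted p = 0.0198 and 0.0322). Ube2d2a was not called without vector replicate 2 or S37A replicates 2 or 3 (0.0572, 0.0695 and 0.0734). Cul3 was not called with a common median ratio (0.142), nor without any 1 library other than vector replicate 1 (0.0537 to 0.0958).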

How the data were processed

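The submitters' processing notes name mm10, bcl2fastq 1.8.3, TopHat and Cufflinks, the last 2 without a version. Per the file headers, the authors' deposited files give FPKM per transcript model with confidence bounds and a coverage signal. FPKM was summed by symbol, and 5 genes with a failed status were left out. Depth came from interval widths, and whole reads were not recovered: inferred fragments were whole within 0.02 for at most 9.75% of models above 30 fragments. Genes averaging 0.5 FPKM or more (12022) were tested in limma 3.58.1 (R 4.3.3) on log2(FPKM + 1) with an intensity trend and no block, and the script was checked on simulated data. Near copies were sought with blastn 2.17.0 (at least 95% identity over 300 bases and 50% of either transcript) in GENCODE M21.

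The members, lists and tests were chosen with earlier results of these data known. Levels, per library or as mean and SD, were given for Psmb5 to Psmb10, Psme1, Psme2 and the 3 members of each role with the smallest p. The same was done for the 3 genes of each related list with the smallest p. Psma5, Psmd8, Psmd14, Psma8, Psmb11, Psmg4, Psme2b and single marker genes were chosen after their values were seen.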

Additional observations from a re-analysis of the deposited data

How the results depend on the processing

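Call counts and the log2 differences of the members and list genes named by rule, and of Isg15, Irf7, Psma5, Psmd8, Psmd14 and Psmg4, were recomputed with another pseudocount, filter, scaling, variance model or replicate block, with genes of 1 transcript model, and without each library. The 3 ratios were recomputed with added FPKM, the most abundant model, the block and without each library. Centring on the 20S and 19S genes was chosen after seeing the data. Count tests were not run, because whole reads were not recovered. The number of all genes called higher, 729, was 1243 under median-ratio scaling, 1094 under quantile normalization, 1238 with sample weights, 442 with the replicate block, 1267 when centred, and 276 to 744 without 1 library. The number called lower, 2393, was 978, 957, 3655, 1193 and 783 in those settings, 1500 without the 100 most abundant genes, and 547 to 2406 without 1 library. Of the proteasome genes, 0 were called higher without a filter or with the replicate block, and 0 or 1 without 1 library. The 8 called lower became 5 without a filter, 2 under median-ratio scaling, 3 under quantile normalization, 5 without the 100 most abundant genes, 15 with sample weights, 1 when centred (Psmd11), and 1 to 8 without 1 library: 1 without S37A replicate 3, 2 without S37A replicate 2, 3 without S37A replicate 1 or vector replicate 2, 4 without vector replicate 3.

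With the replicate block 6 proteasome genes were lower. Same-numbered libraries had correlations of -0.12, 0.021 and 0.104 between their deviations from the group means. These few values cannot tell whether same-numbered libraries share a culture, an animal or a day, and the labels do not say.

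None of the 3122 called genes changed direction in a setting that tested it. Of the 46 members, all those that turned sign were not called: 17 under median-ratio scaling, 15 when centred, 7 without the 100 most abundant genes, 6 under quantile normalization, 1 with sample weights, and 0 to 5 without 1 library. Among the members recomputed one by one these were Psma1 (0.028 under median-ratio scaling, 0.022 when centred), Psmd5 (0.00196 under median-ratio scaling), Psme1 (0.042 under median-ratio scaling, 0.016 under quantile normalization, 0.00589 without the 100 most abundant genes, 0.038 when centred), Psmd8 (0.041 under median-ratio scaling, 0.00377 without the 100 most abundant genes, 0.034 when centred) and Psmg4 (0.036 under median-ratio scaling, 0.043 under quantile normalization, 0.00218 without the 100 most abundant genes, 0.0357 when centred). Without 1 library this happened for Psmb9 (range -0.17 to 0.045), Psmb10 (-0.042 to 0.095), Psmd10 (-0.058 to 0.071), Psme1 (-0.081 to 0.018) and Psmg4 (-0.13 to 0.031). The log2 ratio of Psmb9 to Psmb6 was -0.09, 0.038 with 1 FPKM added, and -0.32 to 0.23 without 1 library. The causes were not tested. Psmb9 rests on the fewest fragments of the tested members, 12 to 28 in a library.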

Other observations

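The share of the leading transcript model was compared for 4 members with 2 models, and 0 reached p = 0.1, the smallest that an exact permutation test of 3 against 3 allows. The 1335-base model of Psmd4, the ubiquitin receptor of the cap, held 65.4% ± 2.23 of the Psmd4 level in vector and 66.6% ± 3.51 in S37A (SD, n = 3, exact two-sided permutation p = 0.6). For Psme2 the share of the 797-base model was 64.5% to 70.0% in vector and ran from 52.0% to 82.5% in S37A, where replicate 3 stood apart from replicates 1 and 2 (exact permutation p = 0.8). The shorter model of Psmd10 was listed at 0 in vector replicates 1 and 3 and in S37A replicate 3, and at 1.82 to 2.01 FPKM in the other libraries.

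With group means subtracted, the genes that varied most like the inducible subunits over the 6 libraries were Cwc15, Gabrb1 and Ap3b1 for Psmb8 (Pearson r of residuals, 0.991 to 0.998), Gm20939, F730043M19Rik and Pold4 for Psmb9 (0.984 to 0.987), and Supt5, Hsd11b2 and Pigw for Psmb10 (0.997 to 0.998). These are the highest of 12021 values each, with 4 degrees of freedom, and none of these genes is shared between the subunits.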
